A study of Mus musculus with 12 samples.

Results

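The 10 genes described here are markers of inhibitory interneurons and the neuropeptides these cells make: *Gad1* and *Gad2*, *Sst*, *Npy*, *Vip*, *Cck* and *Cort*, *Pvalb* and *Calb2*, and *Reln*. They were chosen by name, as the rows of the count table whose Ensembl identifiers map to these symbols. All 10 were found among the 49315 genes of the table, and all 10 passed the filter on low counts that left 20290 genes for testing.

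Brain RNA of 12 male mice was sequenced 14 d post-stroke, 1 library a mouse. The study's results name whole brains as the tissue, and its discussion names whole hemispheres. All recipients were irradiated CD45.1 Pep Boy mice with normal *Tet2*, 8 to 12 weeks old at transplantation, whose heads were shielded during irradiation. In the Tet2-KO group (n = 6), 10% of the transplanted bone marrow (BM) cells came from CD45.2 *Tet2*-/- donors and 90% from CD45.1 *Tet2*+/+ donors. In the WT group (n = 6), the 10% came from CD45.2 *Tet2*+/+ littermates. Donors were 8 to 14 weeks old. Stroke was induced 8 to 10 weeks after transplantation by occluding the right middle cerebral artery for 30 min, so that all 12 mice had a stroke, and mice with sham surgery are not analysed here. The deletion is therefore carried by a part of the blood cells and not by the neurons. The treatment entry of the labels names control cells in both groups, and the groups were taken from the title, description and genotype entries. The comparison asks how the transcriptome of the brain differed, in the subacute phase, between mice transplanted with Tet2-KO and with WT BM cells.

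Interneurons are local neurons that release GABA, which glutamate decarboxylase makes from glutamate. They fall into subclasses that are named by the peptides and calcium-binding proteins they hold, of which the parvalbumin, somatostatin and VIP cells are the best known in cortex. Parvalbumin cells inhibit the cell bodies of pyramidal neurons, somatostatin cells inhibit their dendrites, and VIP cells mostly inhibit other interneurons. Several of the 10 genes are not specific to interneurons: *Gad1* and *Gad2* are also made by striatal projection neurons and Purkinje cells, *Cck* also by pyramidal neurons, and *Calb2* also by excitatory cells such as cerebellar granule cells. In bulk tissue, fewer cells of a type and less RNA per cell cannot be told apart.

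The 12 libraries held 12000261 to 15340787 counts in the WT group and 12625047 to 21049763 in the Tet2-KO group. *Tet2* itself ranged from 126 to 147 CPM (counts scaled to a common library size, after TMM correction for composition) with WT BM and from 117 to 137 CPM with Tet2-KO BM (edgeR, log2 fold change -0.0097 ± 0.051 SE, adjusted p = 0.934). That does not check the labels, since the recipients' own cells keep the gene. Over all tested genes, the median log2 fold change was 0.010, and 5 genes passed the adjusted threshold of 0.05 in edgeR's quasi-likelihood test, or 0.0246% of those tested.

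RefSeq lists a start site, with its promoter, for 9 of the 10 genes (GRCm38.p6); *Calb2* had no entry in the table used. The 250 bases before the start are shown for *Vip*, *Npy* and *Reln*, the members with the smallest p-values below. Each sequence reads 5′ to 3′ on the gene's strand, and capitals mark every match, on either strand, to the cAMP response element TGACGTCA or its core TGACG, to the TATA box TATAAA and to the GC box GGGCGG. The core is part of the full element, so a full match also counts as a core match.
Vip promoter, chr10:5638968-5639217, plus strand: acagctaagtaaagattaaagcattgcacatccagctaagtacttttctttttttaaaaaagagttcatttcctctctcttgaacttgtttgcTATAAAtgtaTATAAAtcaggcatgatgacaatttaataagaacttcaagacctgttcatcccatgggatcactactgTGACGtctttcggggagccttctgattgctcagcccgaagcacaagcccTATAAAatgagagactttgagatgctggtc
Npy promoter, chr6:49822460-49822709, plus strand: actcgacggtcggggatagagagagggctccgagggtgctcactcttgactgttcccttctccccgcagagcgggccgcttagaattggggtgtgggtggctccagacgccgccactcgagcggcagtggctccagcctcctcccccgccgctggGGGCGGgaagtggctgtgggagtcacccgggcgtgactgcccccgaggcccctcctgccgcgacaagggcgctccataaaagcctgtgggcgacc
Reln promoter, chr5:22344706-22344955, minus strand: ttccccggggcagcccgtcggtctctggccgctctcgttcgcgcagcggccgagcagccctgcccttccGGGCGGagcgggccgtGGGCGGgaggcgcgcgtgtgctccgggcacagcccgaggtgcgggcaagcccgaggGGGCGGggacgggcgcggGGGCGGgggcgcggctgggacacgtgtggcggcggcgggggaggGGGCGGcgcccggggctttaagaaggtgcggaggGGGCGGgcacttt

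No match was common to the 3 promoters. *Npy* held the GC box at 95 bases before the start and *Reln* held it 6 times, between 13 and 181 bases before it. The GC box occurred in 32.7% of all 32851 promoters of this length. The *Vip* promoter held the core TGACG at 79 bases before the start, a match found in 17.8% of promoters, and TATAAA at 30, 147 and 157 bases before it, found in 12.4%. The full element TGACGTCA, found in 1.55% of promoters, was read in *Sst* alone among the members with an entry, 48 bases before the start. The core was also read in *Gad2*, *Cck* and *Cort*. These matches describe the sequence, and no binding was measured.

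The level of each gene was compared with that of the others as CPM per kilobase of exon (merged exons of GENCODE M21), over all 12 mice. Levels were highest for *Sst* at 98.1 ± 17.2 CPM per kilobase (SD, n = 12) and *Cck* at 95.9 ± 20.0. These neighbours in the order overlapped, with *Sst* above *Cck* in 10 of 12 mice. *Npy* followed at 66.7 ± 15.0 and lay below *Cck* in all 12 mice. *Gad1* and *Gad2* were at 40.0 ± 4.39 and 39.5 ± 3.17 CPM per kilobase, with *Gad1* the higher in 7 of 12 mice, so that their order was not set. *Pvalb* at 22.3 ± 2.47 and *Calb2* at 18.9 ± 3.16 also overlapped, and *Reln*, whose exons span 23738 bases, was at 6.33 ± 0.840. The lowest levels were those of *Cort* at 2.98 ± 0.750 and *Vip* at 2.70 ± 0.522 CPM per kilobase, which again overlapped.

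Of the 10 genes, *Vip*, *Npy* and *Reln* were higher after transplantation of Tet2-KO BM cells by 1.37-, 1.39- and 1.23-fold, and had the smallest p-values. In edgeR's test, none of the 10 passed the threshold after adjustment over all 20290 genes, against 0.0246% of all genes, and 5 of 10 had an unadjusted p below 0.05, against 23.1%. All 5 (*Reln*, *Vip*, *Npy*, *Gad1* and *Gad2*) were higher with Tet2-KO BM, where 10.8% of all tested genes were higher at this threshold and 12.2% lower. By p-value, *Reln* ranked 72, *Vip* 84 and *Npy* 133 among the 20290 genes. The DESeq2 Wald test, the one used in the study, called these same 3 genes at adjusted p = 0.0103, 0.00887 and 0.0107, where 0.922% of the genes with an adjusted p were called higher. Limma-voom with quality weights also called them, at adjusted p = 0.0124, 0.0150 and 0.0169, where 2.8% of genes were called higher. In edgeR with each library left out in turn, the 3 were called without Tet2-KO replicate 5, where 3.7% of genes were called higher, and no member was called in the other 11 fits. The log2 fold change was above 0 for 8 of the 10 genes, as for 52.3% of all tested genes, and its median over the 10 was 0.21.

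**Figure D1:**
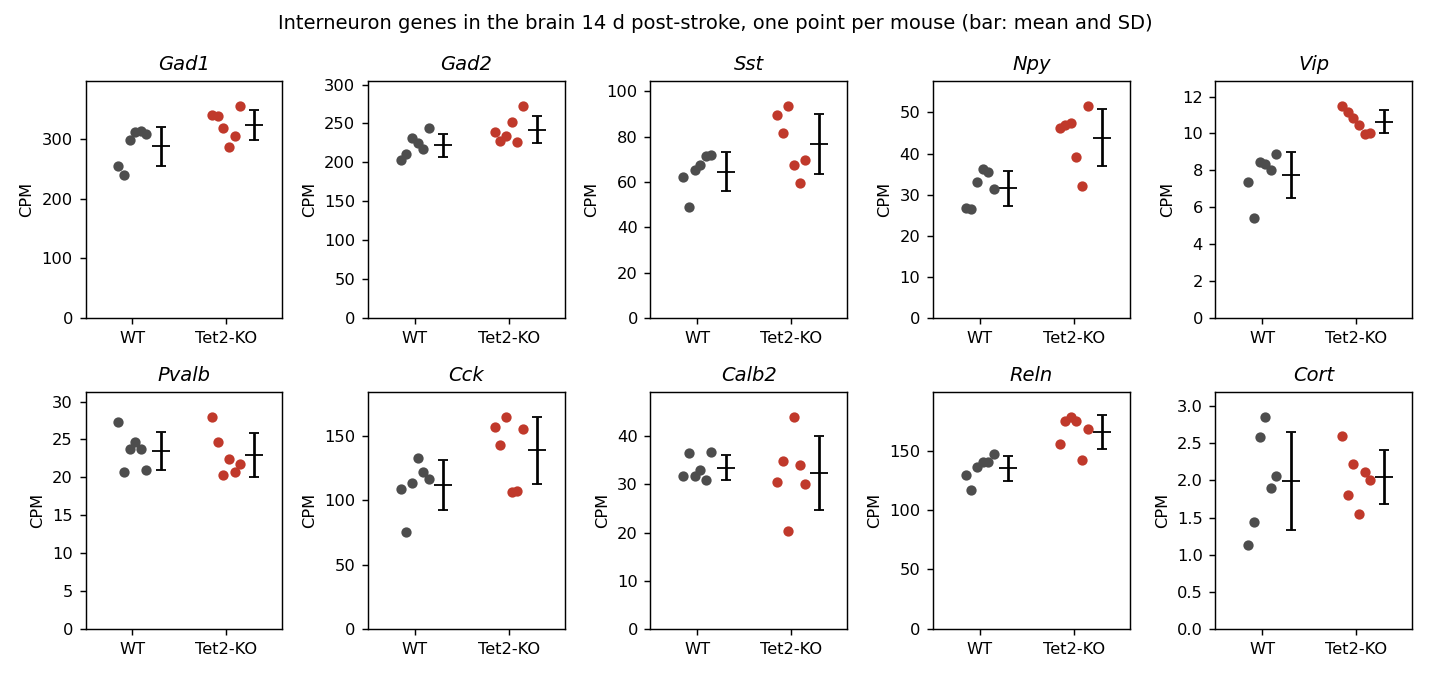
Level of each of the 10 genes in CPM after TMM scaling (vertical axis, from 0 in each panel) in the 6 mice transplanted with WT BM (grey) and the 6 with Tet2-KO BM (red), one point per mouse, with the mean and SD as a bar. The groups did not overlap for *Vip*, where the highest WT mouse was at 8.89 CPM and the lowest Tet2-KO mouse at 9.96 CPM. *Pvalb* covered much the same range in both groups, and for *Cort* the Tet2-KO mice lay inside the WT range. For *Calb2* the Tet2-KO mice spread to both sides of the WT range.

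*Vip* (ENSMUSG00000019772, chr10:5639218-5647617, plus strand, GRCm38) encodes vasoactive intestinal peptide and marks interneurons that inhibit other interneurons. Its level was 5.45, 8.18 and 8.89 CPM (lowest, median and highest mouse) with WT BM and 9.96, 10.6 and 11.5 CPM with Tet2-KO BM. All 6 Tet2-KO mice lay above all 6 WT mice, which held for 0.453% of all tested genes, and *Vip* was the only one of the 10 for which the groups did not overlap. The log2 fold change was 0.46 ± 0.10 (SE; 95% interval 0.24 to 0.68; edgeR adjusted p = 0.110). A two-sided exact permutation test of the log2 CPM, which cannot go below 0.00216 with 6 mice against 6, gave that value, p = 0.00216. The counts behind it were small, 76 to 129 in the WT libraries and 127 to 230 in the Tet2-KO libraries. The coefficient of variation was 5.80% in the Tet2-KO mice and 15.98% in the WT mice, or 6.94% in the WT mice without replicate 2, the lowest.

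*Npy* (ENSMUSG00000029819, chr6:49822710-49829507, plus strand) encodes neuropeptide Y, made by several kinds of cortical and striatal interneuron and by some projection neurons. It was at 26.5, 32.2 and 36.2 CPM with WT BM and at 32.1, 46.5 and 51.5 CPM with Tet2-KO BM. Of the Tet2-KO mice, 5 of 6 lay above every WT mouse, the exception being replicate 5, whose 32.1 CPM fell inside the WT range. The log2 fold change was 0.48 ± 0.11 (95% interval 0.24 to 0.72; edgeR adjusted p = 0.110; exact permutation test, p = 0.0108), the largest of the 10.

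*Reln* (ENSMUSG00000042453, chr5:21884454-22344702, minus strand) encodes reelin, a secreted protein that guides the layering of cortex during development and is made in adult cortex by interneurons. Its level was 117, 138 and 147 CPM with WT BM and 142, 171 and 178 CPM with Tet2-KO BM. As for *Npy*, 5 of 6 Tet2-KO mice were above every WT mouse and replicate 5, at 142 CPM, was not. The log2 fold change was 0.30 ± 0.066 (95% interval 0.16 to 0.44; edgeR adjusted p = 0.110; exact permutation test, p = 0.00433). An antisense gene, *Gm10475*, overlaps 1.04% of its exon length, and whether the counting used strand is not given in the sources used here.

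The enzymes of GABA synthesis differed less. *Gad1* (ENSMUSG00000070880, chr2:70553072-70602014, plus strand), which encodes the GAD67 form that makes most GABA of the cell, was at 239, 303 and 314 CPM with WT BM and at 286, 328 and 354 CPM with Tet2-KO BM. The groups overlapped, with 4 of 6 Tet2-KO mice above every WT mouse, and the log2 fold change was 0.17 ± 0.076 (edgeR adjusted p = 0.200; exact permutation test, p = 0.0649). *Gad2* (ENSMUSG00000026787, chr2:22622205-22693874, plus strand), which encodes the GAD65 form found at nerve terminals, was at 203, 221 and 244 CPM against 227, 237 and 272 CPM, or 0.12 ± 0.058 on the log2 scale (adjusted p = 0.215 in edgeR; exact permutation test, p = 0.0498). Here only 2 of 6 Tet2-KO mice exceeded the WT range. The lower ends of the 95% intervals were 0.0073 for *Gad1* and 0.00036 for *Gad2*. The ratio of *Gad1* to *Gad2* counts had a median of 1.28 with WT BM (range 1.13 to 1.44) and of 1.35 with Tet2-KO BM (range 1.14 to 1.49), and these ranges overlapped almost in full.

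Like the other members, the remaining peptide genes did not pass adjustment in edgeR. Neither the DESeq2 Wald test nor limma-voom called them. *Sst* (ENSMUSG00000004366, chr16:23889573-23890958, minus strand), encoding somatostatin, was at 49.1, 66.4 and 72.0 CPM with WT BM and at 59.6, 75.7 and 93.3 CPM with Tet2-KO BM. Its log2 fold change of 0.25 ± 0.12 had a 95% interval of -0.00011 to 0.50 (edgeR adjusted p = 0.217; exact permutation test, p = 0.0974), and 3 of 6 Tet2-KO mice lay above the WT range. *Cck* (ENSMUSG00000032532, chr9:121489824-121495694, minus strand), encoding cholecystokinin, was at 75.5, 115 and 133 CPM against 106, 149 and 165 CPM. The Tet2-KO mice fell apart here, with 4 above every WT mouse and replicates 4 and 5 at 106 and 107 CPM, below the WT median. Its log2 fold change was 0.32 ± 0.15 (95% interval -0.0045 to 0.64; edgeR adjusted p = 0.222; exact permutation test, p = 0.0779). *Cort* (ENSMUSG00000028971, chr4:149125034-149126763, minus strand) encodes cortistatin, a relative of somatostatin that acts at the same receptors. It was at 1.13, 1.98 and 2.85 CPM with WT BM and at 1.54, 2.06 and 2.60 CPM with Tet2-KO BM, so that the Tet2-KO mice lay inside the WT range. With 15 to 44 counts a library, the 95% interval of its log2 fold change of 0.020 ran from -0.43 to 0.47 (edgeR adjusted p = 0.970), wide enough to hold the fold changes of *Vip* and *Reln*.

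The calcium-binding proteins showed no difference that could be detected. *Pvalb* (ENSMUSG00000005716, chr15:78191114-78206400, minus strand), encoding parvalbumin, was at 20.7, 23.7 and 27.3 CPM with WT BM and at 20.4, 22.1 and 27.9 CPM with Tet2-KO BM. The log2 fold change was -0.031 ± 0.088 with a 95% interval of -0.22 to 0.16 (edgeR adjusted p = 0.872), whose upper end lies below the fitted values of *Vip*, *Npy* and *Reln*, though the difference between genes was not tested. *Calb2* (ENSMUSG00000003657, chr8:110137502-110168210, minus strand), encoding calretinin, was at 30.9, 32.3 and 36.8 CPM with WT BM and at 20.4, 32.2 and 44.0 CPM with Tet2-KO BM. The medians were alike, but the Tet2-KO mice spread to both sides of the WT range, with a coefficient of variation of 23.8% against 7.74%. Its log2 fold change was -0.046 ± 0.14 (95% interval -0.34 to 0.25; edgeR adjusted p = 0.876). The highest *Calb2* value was that of Tet2-KO replicate 4 and the lowest that of replicate 3. Replicate 4 also had the highest summed CPM of the 7 cerebellar markers, at 89.6 CPM, and of the 9 hypothalamic markers, at 76.4 CPM. Replicate 3 had the lowest of both lists, at 23.3 and 31.3 CPM. Replicate 2 did not follow this order, with 63.5 CPM of cerebellar markers, above every WT mouse, 40.7 CPM of hypothalamic markers and *Calb2* at 34.9 CPM, inside the WT range. The part that the sampled region had in the *Calb2* values was not tested.

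**Figure D2:**
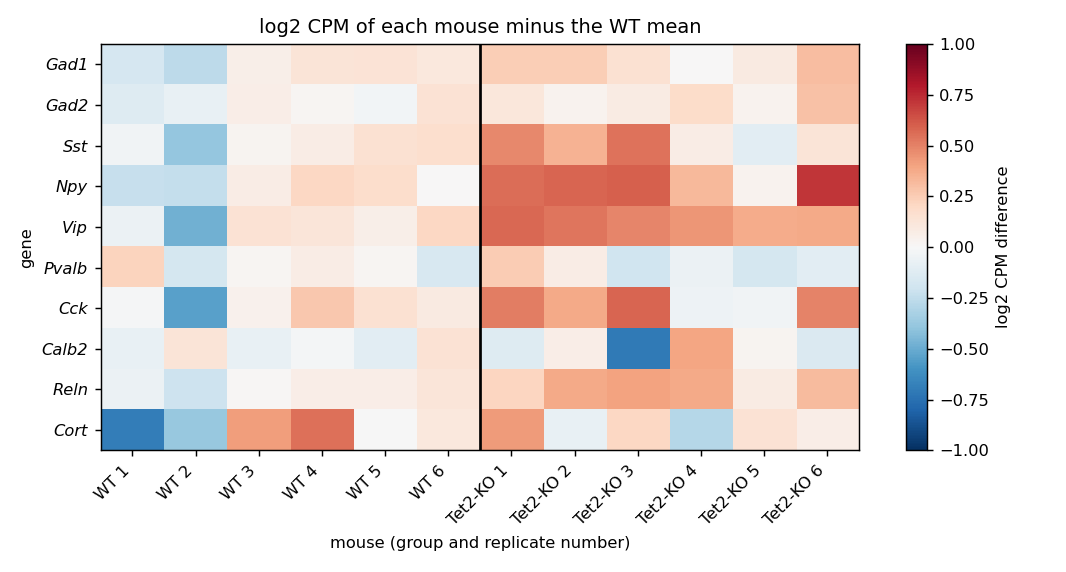
Log2 CPM of each of the 10 genes (rows) in each of the 12 mice (columns), as the difference from the mean of the 6 WT mice on a colour scale from -1 (blue) to 1 (red). WT replicate 2 was the lowest of its group for 7 genes, Tet2-KO replicate 5 was the lowest of its group for 5, and *Calb2* varied among the Tet2-KO mice in a pattern of its own.

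No mouse stood apart for any gene by Dixon's test, run on the 20 combinations of gene and group, but the same mice were often the lowest. WT replicate 2 had the lowest value of its group for 7 of the 10 genes (*Gad1*, *Sst*, *Npy*, *Vip*, *Pvalb*, *Cck* and *Reln*), and Tet2-KO replicate 5 the lowest of its group for *Gad2*, *Sst*, *Npy*, *Vip* and *Reln*. The 8 phagocyte markers, such as the lysosomal and secreted proteins of activated macrophages and microglia, had their highest sums in these same mice. They summed to 5030 CPM in WT replicate 2, against 2157 to 3072 CPM in the other WT mice, and to 2753 CPM in Tet2-KO replicate 5, against 483 to 1616 CPM in the other Tet2-KO mice. The 12 pan-neuronal markers summed to 4472 CPM in WT replicate 2, the lowest of the 12 mice, and to 5676 CPM in Tet2-KO replicate 5, inside the WT range. Without Tet2-KO replicate 5, edgeR called *Npy* (log2 fold change 0.55, adjusted p = 0.00620), *Vip* (0.48, adjusted p = 0.0196) and *Reln* (0.34, adjusted p = 0.00806), where 3.7% of all tested genes were called higher. With WT replicate 2 left out as well, the same genes were called (0.50, 0.39 and 0.30; adjusted p = 0.00508, 0.0187 and 0.00508), where 2.65% were called higher. The part that the other cells of the tissue had in the 10 genes was not tested.

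Levels of the other 8 genes were also taken per 1000 counts of *Gad1* and *Gad2* summed in the same library, which sets each gene against the GABA-synthesis genes of that brain and does not depend on the scaling. On this scale *Npy* was at 56.9, 60.7 and 67.5 with WT BM and at 60.4, 81.0 and 86.1 with Tet2-KO BM, a log2 difference of 0.32 with 5 of 6 Tet2-KO mice above every WT mouse (exact permutation test, two-sided p = 0.0108). *Vip* was at 12.1, 15.8 and 16.1 against 15.98, 19.5 and 19.8, also a log2 difference of 0.32 with 5 of 6 above (exact permutation test, p = 0.00866). For *Reln* the log2 difference shrank to 0.14, at 257, 264 and 283 against 268, 289 and 325 (exact permutation test, p = 0.0519). *Pvalb* went the other way, at 37.9, 45.3 and 59.8 against 34.7, 40.3 and 48.3, a log2 difference of -0.19 that the exact permutation test did not separate from the spread (p = 0.121). The differences of *Sst* (0.091), *Cck* (0.16), *Calb2* (-0.24) and *Cort* (-0.063) had p-values of 0.435, 0.232, 0.221 and 0.751 in the same exact permutation test. These 8 comparisons were made without adjustment, and 6 mice against 6 cannot give a p below 0.00216.

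**Figure D3:**
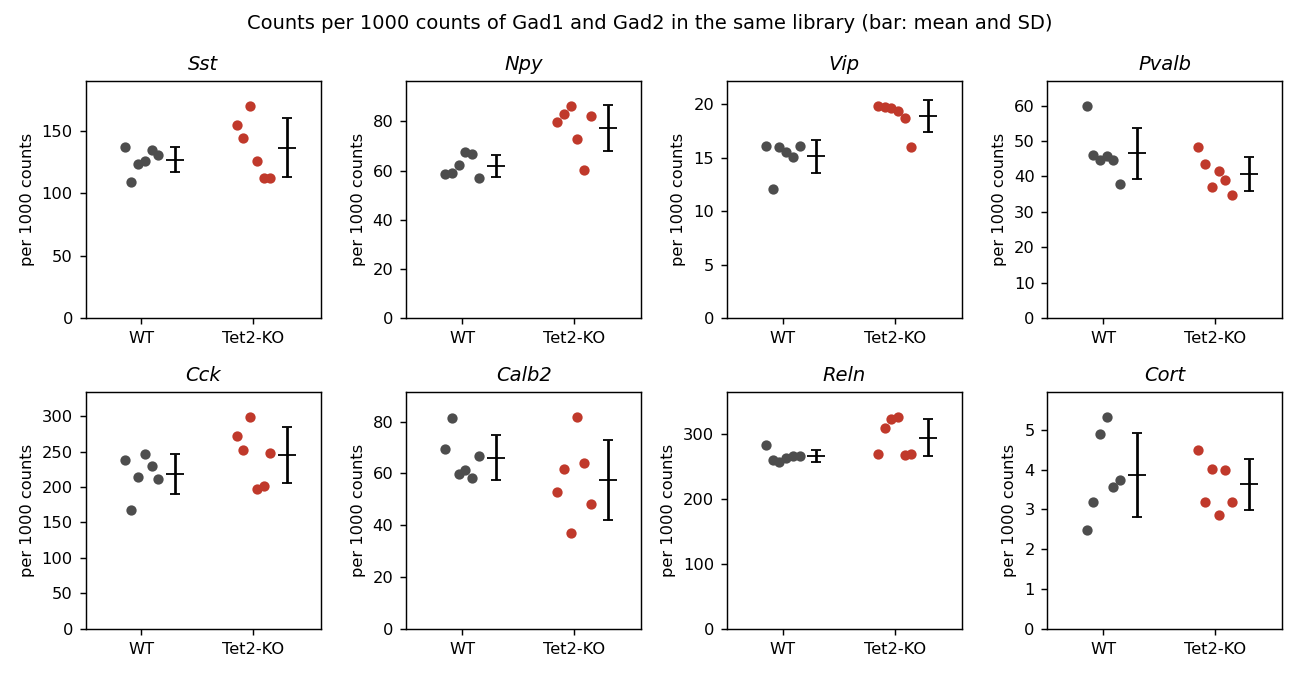
Counts of 8 genes per 1000 counts of *Gad1* and *Gad2* in the same library (vertical axis, from 0), one point per mouse for WT BM (grey) and Tet2-KO BM (red), with the mean and SD as a bar. For *Npy* and *Vip*, 5 of 6 Tet2-KO mice lay above every WT mouse, while *Pvalb* leaned lower with overlapping groups.

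Genes that all neurons share leaned the same way as most of the 10. Of the 12 pan-neuronal genes, 9 were higher with Tet2-KO BM at an unadjusted edgeR p below 0.05 and none lower, with a median log2 fold change of 0.22, near the 0.21 of the 10 interneuron genes and above the 0.010 of all tested genes. None of the 12 passed adjustment in edgeR or in the DESeq2 Wald test, and 5 of 12 were called higher in limma-voom and in edgeR without Tet2-KO replicate 5, so that calls in those settings were not particular to *Npy*, *Vip* and *Reln*. Among them, *Rbfox3*, which encodes the nuclear marker NeuN, went from 160 ± 17.6 to 199 ± 26.5 CPM (SD, n = 6; log2 fold change 0.31, edgeR adjusted p = 0.121). When the libraries were scaled to these 12 genes, the median over all genes became -0.21 and that over the 10 members -0.0097. On that scale 3 of the 10 had an unadjusted edgeR p below 0.05: *Npy* at 0.25 (adjusted p = 0.0942) and *Vip* at 0.25 (adjusted p = 0.0986) were higher, and *Pvalb* at -0.25 (adjusted p = 0.0937) was lower. Of all genes, 0.222% were then higher at this threshold and 37.1% lower, so a gene that was higher stood against the shift and one that was lower moved with it. *Reln* was at 0.08 (adjusted p = 0.398) and *Gad1* and *Gad2* turned to -0.05 and -0.09. A change of scaling moves all genes by nearly the same amount, so values relative to the median of all genes stay alike by construction. They were 0.47 and 0.46 for *Npy*, 0.45 and 0.46 for *Vip*, and 0.29 and 0.29 for *Reln*, which is no further test of these genes.

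**Figure D4:**
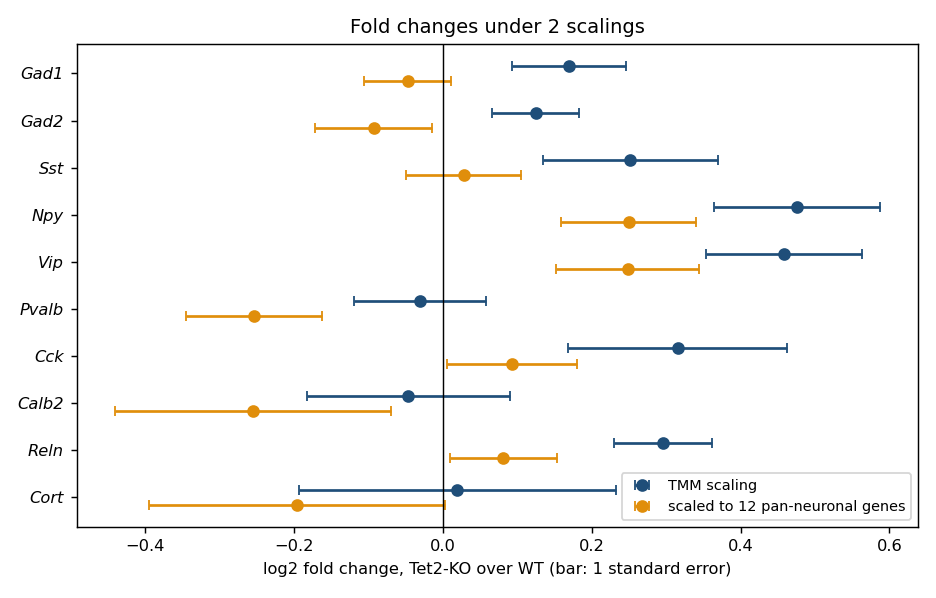
Log2 fold change of Tet2-KO over WT for each of the 10 genes (points, with 1 standard error) from edgeR, after TMM scaling (blue) and after scaling to 12 pan-neuronal genes (orange). *Npy* and *Vip* stayed above 0 on both scales, at 0.48 and 0.46 and then at 0.25 and 0.25, whereas *Gad1*, *Gad2* and *Cort* changed sign, as the median of all genes moved from 0.010 to -0.21 (relative to it, *Gad1* was at 0.16 on both scales).

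Genes that act with the 10 were mixed. Of the 6 genes of GABA transport and breakdown, *Slc6a13*, a GABA transporter of the meninges and blood vessels, was lower (16.5 ± 3.86 against 11.5 ± 2.49 CPM, log2 fold change -0.52, edgeR adjusted p = 0.124). It did not pass in edgeR and did in the DESeq2 Wald test (adjusted p = 0.0432). *Abat* and *Aldh5a1*, the enzymes that break GABA down, were at 0.08 and 0.11 with no support from the test (adjusted p = 0.358 and 0.270). The list's median was 0.08.

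Of 18 transcription factors of interneurons, 17 could be tested and the median log2 fold change was 0.06. *Lhx6*, needed by the parvalbumin and somatostatin cells, was higher at 0.26 (16.2 ± 1.86 against 19.4 ± 1.11 CPM, edgeR adjusted p = 0.121), as was *Satb1* at 0.20 (adjusted p = 0.155), while *Maf* was lower at -0.39 (adjusted p = 0.138). *Maf* is also made by microglia and macrophages. Of 27 further subclass markers, 9 were higher and 1 lower at an unadjusted p below 0.05, with a median of 0.15. *Calb1*, encoding calbindin, went from 65.3 ± 3.41 to 76.8 ± 7.87 CPM (log2 fold change 0.23, edgeR adjusted p = 0.115) and was the only one of the 27 that the DESeq2 Wald test called (adjusted p = 0.0426). *Erbb4*, the neuregulin receptor of many interneurons, was at 0.20 and *Nxph1* at 0.14 (edgeR adjusted p = 0.126 and 0.145), and *Id2*, found in neurogliaform cells and in glia, was lower at -0.16 (adjusted p = 0.145).

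Of 16 receptors and effectors for the peptides and reelin, 15 could be tested, with a median log2 fold change of 0.14. The somatostatin receptors *Sstr3* and *Sstr2* had log2 fold changes of 0.37 and 0.38 (edgeR adjusted p = 0.149 and 0.194), with *Sstr1* at 0.16, *Sstr4* at 0.06 and *Sstr5* too low to test. Limma-voom called *Sstr3* higher at 0.38 (adjusted p = 0.0450), and the DESeq2 Wald test did not. *Dab1*, the intracellular adaptor of reelin signalling, was at 0.25 (adjusted p = 0.179), with the reelin receptors *Lrp8* and *Vldlr* at 0.06 and 0.09. The neuropeptide Y receptor *Npy1r* was lower, from 28.2 ± 1.79 to 23.4 ± 3.10 CPM (-0.27 ± 0.081, edgeR adjusted p = 0.123), opposite in sign to its ligand, and limma-voom called it at -0.32 (adjusted p = 0.0187) where the DESeq2 Wald test did not. *Npy2r* was at -0.02 (adjusted p = 0.968).

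**Figure D5:**
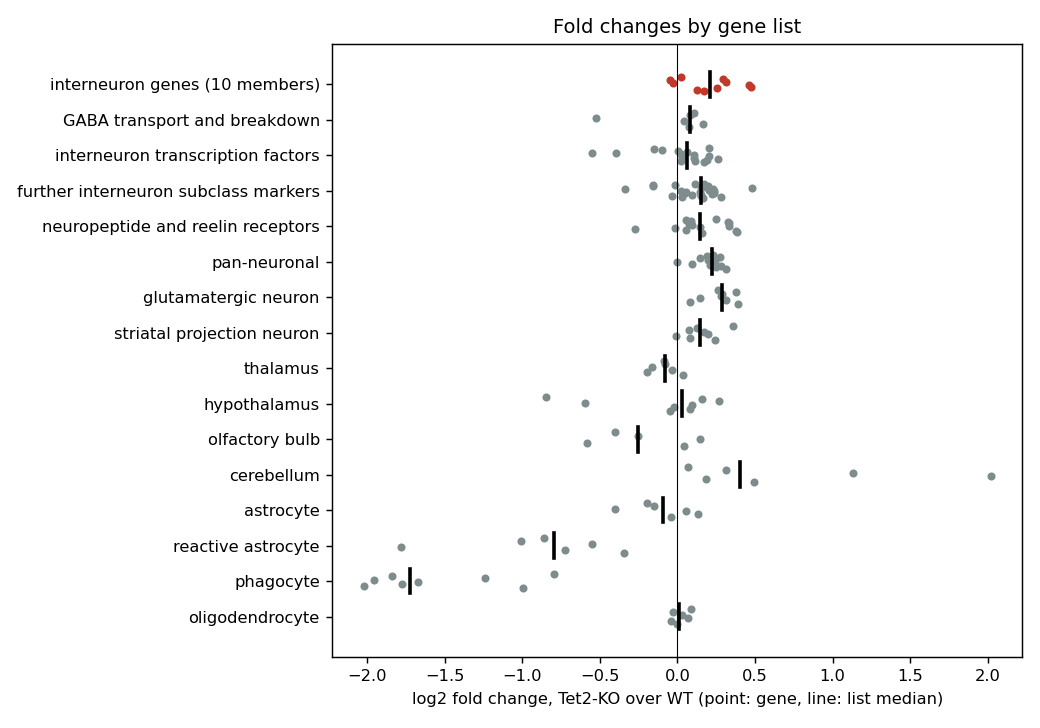
Log2 fold change of Tet2-KO over WT from edgeR for each gene (points) of 16 lists (rows), with the list median as a line and the 10 interneuron genes in red. The neuronal lists sat mostly to the right of 0, with medians of 0.22 for pan-neuronal and 0.29 for glutamatergic genes, and the phagocyte and reactive astrocyte lists to the left, with medians of -1.72 and -0.79.

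Markers of other cells and regions differed as well. All 8 glutamatergic genes had a positive log2 fold change, 4 of them at an unadjusted edgeR p below 0.05, with *Tbr1*, a transcription factor of deep cortical layers, at 0.38 (adjusted p = 0.128). Of 8 striatal projection neuron genes, *Drd1* alone passed the unadjusted threshold, at 0.24 (adjusted p = 0.158). The medians were -0.08 for thalamus, 0.03 for hypothalamus, -0.26 for olfactory bulb and 0.40 for cerebellum, none with more than 2 genes past the unadjusted threshold. The cerebellar sum was at 63.5 and 89.6 CPM in Tet2-KO replicates 2 and 4 and at 23.3 to 27.3 CPM in the other 4, and its median was 26.3 CPM with Tet2-KO BM against 27.3 CPM with WT BM. In the phagocyte list, 7 of 8 genes were lower at an unadjusted p below 0.05, with *Lgals3* going from 52.0 ± 21.9 to 13.6 ± 14.1 CPM (edgeR adjusted p = 0.132). In the reactive astrocyte list all 6 had a negative log2 fold change, 3 of them at an unadjusted edgeR p below 0.05. No gene of these lists passed the adjusted edgeR threshold with all 12 mice. Limma-voom called 6 of 8 phagocyte, 2 hypothalamic and 1 reactive astrocyte gene lower, and 1 of 8 glutamatergic and 1 of 8 striatal genes higher. Of all 20290 genes it called 1863 in either direction. EdgeR without Tet2-KO replicate 5 called 6 phagocyte, 1 thalamic and 1 hypothalamic gene lower, and 2 glutamatergic and 3 striatal genes higher. Of all 20525 genes in that fit, 2257 were called. The DESeq2 Wald test called 1 hypothalamic gene lower and no other gene of these lists. The astrocyte and oligodendrocyte lists had medians of -0.09 and 0.01. The defining markers of excitatory, striatal and glial cells were present beside the interneuron genes, and their part in the values of the 10 genes was not tested.

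For each of the 10 genes, the genes with the most similar pattern were those whose deviations from the group means had the highest Pearson correlation with it over the 12 mice, among 19028 genes with a mean of at least 1 CPM. *Cck* was closest to *Car4* (r = 0.99, Spearman's rho 0.93), which encodes a carbonic anhydrase, and *Celf5* (r = 0.99, rho 0.94), and *Sst* to *Ptprn* (r = 0.97, rho 0.95), a protein of secretory vesicles, and *Grik3* (r = 0.97, rho 0.94), a kainate receptor subunit. *Npy* was closest to *Cacng7* (r = 0.96, rho 0.85), a subunit that regulates AMPA receptors. *Pvalb* was closest to *Hsph1* (r = 0.94, rho 0.93) and *Stip1* (r = 0.94, rho 0.90), a heat shock protein and a co-chaperone, and *Calb2* to *Chrnb4* (r = 0.93, rho 0.88), a nicotinic receptor subunit. *Reln* was closest to *Dcaf5* (r = 0.92, rho 0.89) and *Gad2* to *Zfp941* (r = 0.93, rho 0.89), and the genes nearest to *Vip*, *Gad1* and *Cort* were mostly transcripts without a gene name, with r of 0.88 to 0.96. Among the 10 themselves, *Sst* and *Cck* deviated most alike (r = 0.86). The 12 points of each correlation are the same libraries throughout, and each r is the highest of those computed, given as a description.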

How the data were processed

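Per the submitters' processing notes and the methods, the authors trimmed the reads with Trimmomatic 0.36, aligned them to mm10 with STAR 2.5.2b and deposited whole-number counts of uniquely mapped reads in exons per gene from featureCounts of Subread 1.5.2. The deposited counts are not normalized, and 0 columns belong to no sample. The strand setting of the counting is not given in the sources used here.

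CPM (TMM scaling), log2 fold changes and tests were computed from these counts with edgeR 4.0.16 in R 4.3.3: filterByExpr, quasi-likelihood F test, robust fit, 12 mice, no covariates, Benjamini-Hochberg adjustment over all 20290 tested genes, threshold 0.05. DESeq2 1.42.0 and limma 3.58.1 were alternatives, with other scalings, filters and each library left out. The exact permutation tests and the values per count of *Gad1* and *Gad2* were added after the data were seen. The tests were also run on simulated data, whose results are not given here. That run is therefore no evidence on how well the tests detect fold changes as small as those of these genes. The fold change intervals are 95% intervals of the edgeR fit.

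Symbols, coordinates and exon lengths came from GENCODE M21, promoters from RefSeq. All 10 genes are named. From each further list, up to 3 genes per direction with the smallest p are named, apart from 2 that are left out of the text, and other genes named were picked after their values were seen. The genes, lists and tests were chosen with earlier results of these data known. All libraries shared 1 sequencing lane, and batches of surgery or extraction are not given in the sources used here.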

Additional observations from a re-analysis of the deposited data

How the results depend on the processing

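The log2 fold changes of *Npy*, *Vip* and *Reln* kept their sign under all alternatives run. Those of *Sst* and *Cck* did so too, at 0.028 and 0.092 when the libraries were scaled to pan-neuronal genes. No gene of the 10 passed adjustment in edgeR, and 3 did (*Npy*, *Vip* and *Reln*) in the DESeq2 Wald test, in limma-voom, and in edgeR without WT replicate 2 and Tet2-KO replicate 5 together, which was chosen after seeing the data. With each library left out in turn, the number past adjustment ran from 0 to 3, and it was 3 only without Tet2-KO replicate 5. The number at an unadjusted p below 0.05 ran from 3 to 7 (15.3% to 28% of all genes in these fits), being 3 without WT replicates 1 and 2 and Tet2-KO replicates 1 and 3, and *Npy*, *Vip* and *Reln* were among them in 12 of 12 fits, *Gad1* in 6 and *Gad2* in 4. That number was also 3 when the libraries were scaled to pan-neuronal genes, where the median log2 fold change of the 10 became -0.0097, *Gad1* -0.047, *Gad2* -0.093 and *Cort* -0.20. The cause was not tested beyond the shift of -0.21 that this scaling gave over all genes.

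Values near 0 changed sign elsewhere. *Cort* was at -0.052 in limma-voom, -0.075 without WT replicate 2 and Tet2-KO replicate 5, and -0.063 per count of *Gad1* and *Gad2*, and ran from -0.098 to 0.16 with each library left out. *Pvalb* was at 0.0037 after upper quartile scaling and ran from -0.093 to 0.017 with each library left out, and *Calb2* from -0.16 to 0.057. With a replicate block, 4 of the 10 had an unadjusted p below 0.05 (21.3% of all genes) and none an adjusted one, with *Npy* at 0.47, *Vip* at 0.47 and *Reln* at 0.30. The replicate numbers are not stated to pair the mice, and deviations of same-numbered mice correlated at -0.17 to 0.23, with replicate 6 alone correlating best with its own number. Over all genes, calls at adjusted p below 0.05 numbered 5 in edgeR, 44 without the filter on low counts, 898 in the DESeq2 Wald test, 1863 in limma-voom, 1554 without both named libraries, 0 to 2257 with each library left out (2257 without Tet2-KO replicate 5), and 0 with the block, with pan-neuronal scaling or with at least 10 counts in every library. Depth limited *Cort* most, with 15 to 44 counts a library, and *Vip*, with 76 to 230.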
